A study of Mus musculus with 53 samples.

Results

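The 10 genes described here are immediate early genes. They are *Egr1*, *Egr2*, *Egr3*, *Fos*, *Fosb*, *Jun*, *Junb*, *Ier2*, *Ier3* and *Dusp1*, chosen by symbol from the platform annotation of the mouse arrays. All 10 were measured, by 12 probe sets (*Egr2* and *Jun* have 2 each) of the 45141 on the array, which name 17097 genes. The study modelled synovial sarcoma, a soft tissue cancer that carries the SS18-SSX fusion, and hybridized total RNA of 9 groups to 53 arrays. SS214 tumors (n = 13) and SS tumors (n = 12) grew under the skin of nude mice from embryonic mesenchymal cells (eMCs), carrying a retrovirus with human *SS18-SSX1* and *miR-214* in SS214 and with *SS18-SSX1* in SS. By the paper's methods the vector of *SS18-SSX1* alone also holds GFP, which *miR-214* replaces in the vector of SS214. Nude mice lack T cells but keep other leukocytes, vessels and muscle, so the tumors hold host cells. SS40 and SS64 are cell lines from mouse synovial sarcoma, each transfected with *miR-214* or labelled NC (n = 4 for each of the 4 groups). The fusion-expressing eMCs carried *SS18-SSX1* for 48 h, and the reference eMCs an empty retrovirus that makes GFP (n = 4 each), both from limbs of late BALB/c embryos. The last group is a mix of normal tissues, mouse by its label (n = 4). eMCs grew in 15% serum and the lines in 10% serum.

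Immediate early genes are transcribed within minutes when a cell meets serum, a growth factor or stress, without new protein synthesis. MAP kinases reach serum response factor (SRF) with its ELK partners at CArG boxes, and CREB and ATF proteins at cyclic AMP response elements (CREs). EGR1, EGR2 and EGR3 are zinc finger transcription factors, and FOS, FOSB, JUN and JUNB are leucine zipper proteins that pair as the factor AP-1. IER2 and IER3 are small proteins of the same early wave, IER3 being linked to cell survival, and DUSP1 is a phosphatase that switches MAP kinases off. In human synovial sarcoma cells SS18-SSX is known to repress *EGR1*, and a complex of the fusion with ATF2 and the corepressor TLE1 has been described there.

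The stretches upstream of the transcription start were searched for the elements named above and for a few other motifs. RefSeq windows (build GRCm38.p6) were matched for 7 of the 10 members. Read 5′ to 3′, they are given as 150 bases for 6 members and as 30 bases at each of the CArG boxes of *Egr2*. Capitals mark a CArG box, the CRE TGACGTCA or its core TGACG, the *Jun*-type site TGACATCA, or TATAAA, each searched on both strands. The CRE holds this core by construction.
Egr2 (chr10:67537494-67537523, + strand): CCTTTTTTGGaaagtctcggagaaccggaa
Egr2 (chr10:67537797-67537826, + strand): CCATATATGGgcagcgaCGTCAcgggtatt
Fos (chr12:85473740-85473889, + strand): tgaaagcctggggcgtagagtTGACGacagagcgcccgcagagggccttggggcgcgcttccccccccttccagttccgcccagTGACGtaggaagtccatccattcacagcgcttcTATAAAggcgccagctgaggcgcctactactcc
Fosb (chr7:19310046-19310195, - strand): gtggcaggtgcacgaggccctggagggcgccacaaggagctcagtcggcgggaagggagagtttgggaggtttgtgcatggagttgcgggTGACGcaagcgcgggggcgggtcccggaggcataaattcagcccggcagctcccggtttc
Jun (chr4:95052223-95052372, - strand): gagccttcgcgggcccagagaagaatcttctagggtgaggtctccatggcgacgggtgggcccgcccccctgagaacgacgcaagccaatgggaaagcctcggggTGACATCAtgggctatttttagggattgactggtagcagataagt
Junb (chr8:84978749-84978898, - strand): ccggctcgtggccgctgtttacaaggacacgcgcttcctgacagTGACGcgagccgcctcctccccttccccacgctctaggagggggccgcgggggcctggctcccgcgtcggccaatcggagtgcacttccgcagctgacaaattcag
Ier3 (chr17:35821563-35821712, + strand): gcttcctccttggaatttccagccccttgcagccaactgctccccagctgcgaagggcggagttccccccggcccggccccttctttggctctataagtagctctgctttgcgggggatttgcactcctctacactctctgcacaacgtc
Dusp1 (chr17:26508473-26508622, - strand): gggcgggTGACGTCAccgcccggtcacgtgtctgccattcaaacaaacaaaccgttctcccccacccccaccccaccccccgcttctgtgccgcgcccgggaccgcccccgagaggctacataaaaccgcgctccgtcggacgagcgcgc

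The core TGACG stood in the windows of 5 members (*Egr2*, *Fos*, *Fosb*, *Junb* and *Dusp1*), and in 13.3% of the 32841 mouse windows of 150 bases. *Egr2* was searched in the 5 windows of its annotated starts and each other member in 1, so these shares of single windows do not hold for *Egr2*. The complete CRE was found in *Dusp1* (1.36% of all windows), the CArG boxes in *Egr2* (0.917%), TATAAA in *Fos* (7.57%) and TGACATCA in *Jun* (2.32%). The AP-1 site TGANTCA, in 4.24% of windows, was in none of the 7. *Ier3* had none of the searched motifs. A match says only that the letters are there, and elements farther upstream, such as the known serum response element of *Fos*, lie outside these windows.

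Each array gave 1 intensity per probe set on a linear scale. Intensities under 11.7 (3.55 on the log2 scale), the median of the arrays' 20th percentiles, were set to this floor, and levels are log2 intensities throughout. Differences are log2, the first-named group minus the second, from limma with Benjamini-Hochberg adjustment over all probe sets tested, and a gene passed at an adjusted p under 0.05. Where a gene has 2 probe sets the brighter is given. Intensities of different genes cannot be set against each other, since each probe set has its own response. Nothing in the labels says that the 4 replicates of a culture or of the mix were separate cultures or animals, so p-values measure the spread between these arrays.

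Several features of the arrays touch these results. *Gapdh* probed near its 3′ end and near its 5′ end gives a ratio that rises as RNA degrades, and its log2 was 0.0566 ± 0.137 in SS214 (SD, n = 13) and 0.849 ± 0.369 in SS (n = 12), and from -0.331 to 0.185 on the arrays of the lines, the eMCs and the mix. Muscle genes (7 of 7 on the array) summed to between 7030 and 58100 intensity units in SS214 and between 11100 and 45300 in SS, against 428 to 458 in eMCs with the empty vector and at most 230 in either line. In the lines the endothelial sum (8 of 8) was between 208 and 321, with *Cdh5* at the floor on every array, and the macrophage sum (9 of 9) between 161 and 397. SS214 tumors 13 to 16, and no SS tumor, were high in lung epithelial genes (4 of 5 on the array), whose sum reached 4780 in SS214 and 137 in SS. High here means a mean log2 level of these genes more than 2 above the median of SS. Below this cut, SS214 tumors 3 and 4 (434 and 146) still exceeded every SS tumor. Tumors 2, 5 and 8 had 124, 128 and 110, and tumors 1, 6, 7 and 9 had 55.1 to 77.8, against an SS median of 51.7. Mesenchymal markers (8 of 8) summed to 6760 or more on every array, although *Col1a2* lay at the floor throughout SS and SS40 NC. Markers of synovial sarcoma (5 of 5) summed to between 3270 and 8660 in the tumors, 2610 and 3690 in SS64 and 6350 and 7280 in the eMCs, but to 799 at most in SS40, below the 824 to 870 of the mix. Such a sum follows its brightest probe sets. *Tle1*, which is among these markers, was higher in SS than in empty vector eMCs, although the median sum was lower (5300 against 6410). This sum thus does not rank the groups by sarcoma identity. In bulk RNA, fewer cells of a type and less RNA per cell cannot be told apart.

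The empty vector eMCs had the highest mean of *Egr1*, *Egr3*, *Fos*, *Fosb*, *Ier2* and *Dusp1* over the 9 groups, and the fusion-expressing eMCs the highest mean of *Egr2*, *Jun*, *Junb* and *Ier3*. Mean *Egr1* ran from 11.83 in empty vector eMCs and 11.71 in fusion-expressing eMCs through 10.31 and 9.99 in SS40 (*miR-214* and NC), 9.57 in SS, 9.42 and 9.06 in SS64 (*miR-214* and NC) and 8.77 in SS214 to 8.37 in the tissue mix. Only 3 of these 8 steps (both eMC groups against the next, and SS64 with *miR-214* against SS64 NC) showed no overlap of arrays. Mean *Fos* had another order below the eMCs (11.01 empty, 10.61 fusion): the tumors came next, at 9.44 in SS214 and 9.03 in SS, then SS64 at 8.50 (*miR-214*) and 8.34 (NC), SS40 at 8.00 and 7.72, and the mix at 7.54. *Ier3* was high in every culture, at 11.22 in fusion-expressing eMCs, 11.16 in SS40 NC, 10.95 in SS40 with *miR-214*, 10.82 in empty vector eMCs, and 10.51 and 10.42 in SS64 (NC and *miR-214*). It was 9.47 in the mix and 8.22 in both tumor groups, so all tumors lay below all other arrays. *Egr3* averaged between 5.05 and 5.66, neighbouring groups overlapping at each step, and *Fosb* was near the floor, at 4.77 in empty vector eMCs and 3.55 in the mix.

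**Figure D1:**
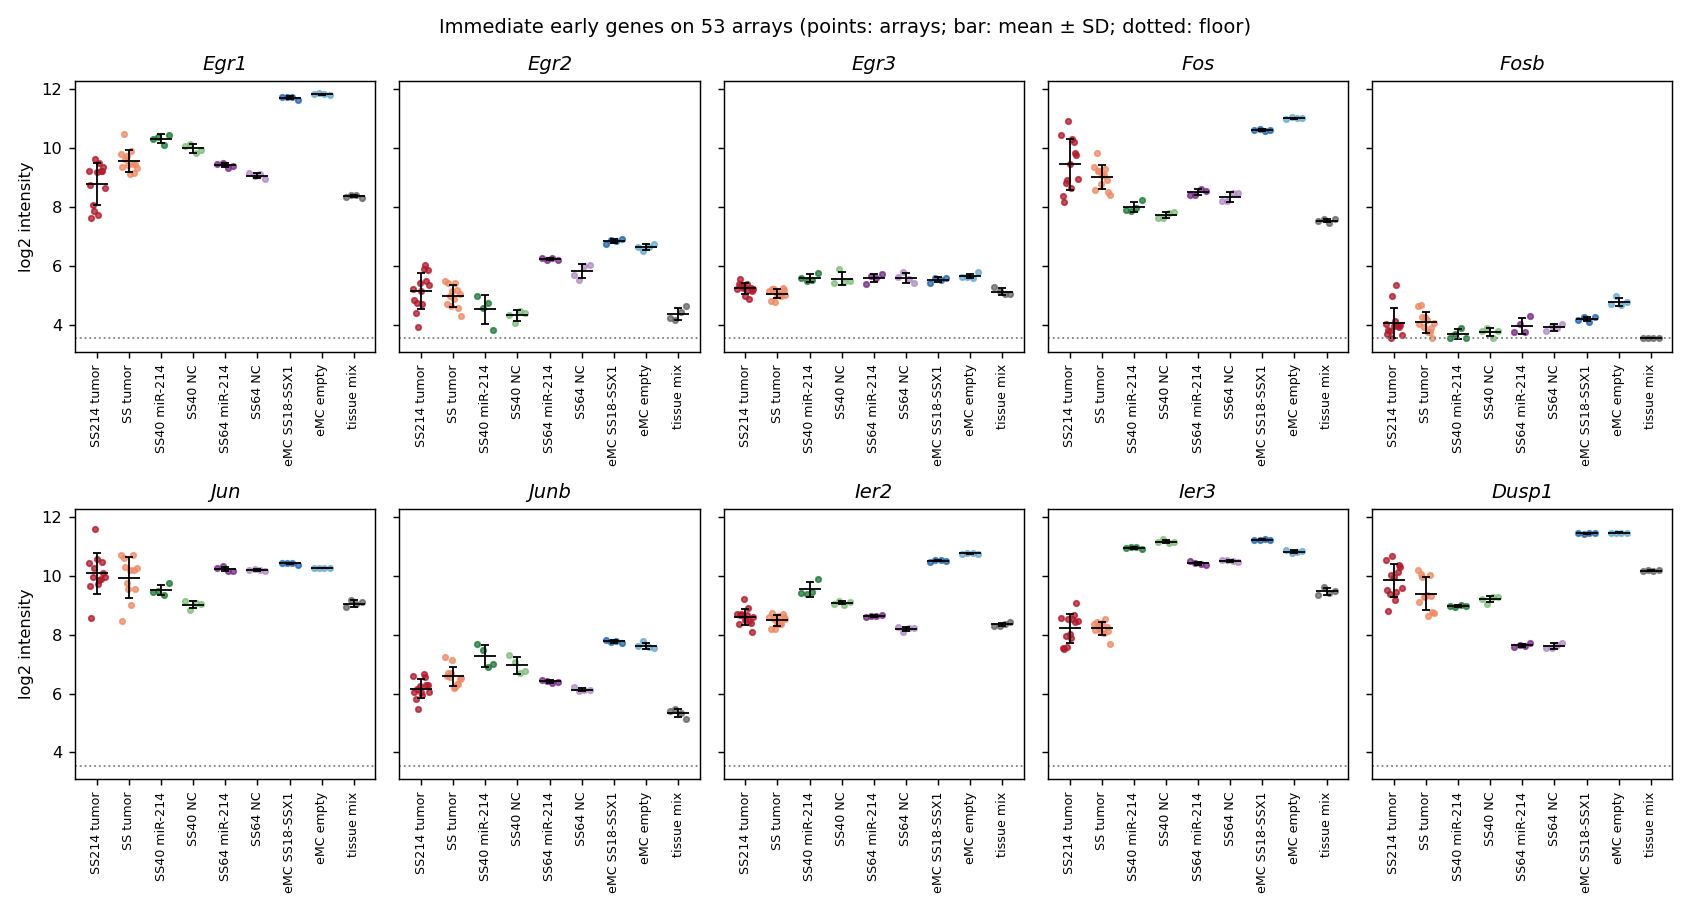
Log2 intensity of the 10 genes (1 panel each) on 53 arrays, by group from SS214 tumors to the tissue mix. Points are arrays, bars the mean ± SD and the dotted line the floor at 3.55. *Egr1*, *Fos*, *Ier2* and *Dusp1* are highest in both eMC groups, whereas *Ier3* is high in all cultures and 8.22 on average in both tumor groups.

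Across the 9 group means, the pattern of *Egr1* was most like those of *Lpar1* (Pearson's r = 0.962), *Ier2* (0.960), *Tcaf1* (0.959), *Junb* (0.956) and *Bpnt2* (0.948), of 11725 genes. That of *Fos* was most like those of *Copz2* (0.990), *Hoxa2* (0.979), *Tcfl5* (0.972), *Rpl26* (0.970) and *Plod2* (0.965). Among the members, *Fos* and *Fosb* had r = 0.926 and *Egr2* and *Jun* 0.893, whereas *Egr1* and *Jun* had 0.404, *Fos* and *Ier3* 0.056, and *Egr3* and *Dusp1* -0.119. These coefficients rest on 9 points that share the same arrays and describe likeness only.

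The first comparison asked what 48 h of *SS18-SSX1* did in eMCs. The changes were small and went both ways: *Fos*, *Fosb*, *Ier2* and *Egr1* fell and *Ier3*, *Egr2*, *Junb* and *Jun* rose, all by less than 2-fold. These 8 of 10 members compare with 48.9% of the 15324 genes tested, of which 29.4% were higher and 19.5% lower, and with 3.65% called at over 2-fold. The median difference was -0.07 over the members and -8.4e-05 over all genes. *Egr1* was 11.75, 11.72, 11.72 and 11.65 in fusion-expressing eMCs, against 11.83, 11.86, 11.83 and 11.81 with the empty vector. The groups did not overlap, yet the fall was 0.12 (SE 0.0208, limma adjusted p = 0.000206), a level 1.09-fold lower. *Egr2* differed by 0.21 (SE 0.0626, limma adjusted p = 0.0154), with all 4 arrays above those of the empty vector. Its second probe set overlapped and did not pass (0.18, limma adjusted p = 0.223), and the call was lost with quantile normalization (0.09, limma adjusted p = 0.276) and with the mean over probe sets (limma adjusted p = 0.0705). *Egr3* averaged 5.53 ± 0.0868 with the fusion and 5.66 ± 0.0816 without it (SD, n = 4 each), and did not pass (limma adjusted p = 0.202).

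Of the AP-1 genes in eMCs, *Fos* was 10.60, 10.65, 10.59 and 10.60 with the fusion, against 11, 11.04, 11.01 and 11.01 with the empty vector. It fell by 0.40 (SE 0.021, limma adjusted p = 4.22e-10), without overlap. *Fosb* was 4.14, 4.27, 4.11 and 4.26 with the fusion, against 4.69, 4.96, 4.65 and 4.77 without it, and fell by 0.57 (limma adjusted p = 4.03e-05), within 1.5 log2 units of the floor, which can shrink a difference. *Jun* rose, with a difference of 0.14, as did *Junb*, with 0.15 (limma adjusted p = 0.000113 and 0.0359), the arrays of *Junb* overlapping. The *Junb* call was lost in 6 of the 8 fits that leave out 1 array (limma adjusted p up to 0.102) and with quantile normalization (0.04, limma adjusted p = 0.571). The second *Jun* probe set differed by 0.08 (limma adjusted p = 0.0543). *Ier2* fell by 0.24 (limma adjusted p = 2.71e-07). *Ier3* rose by 0.40 (SE 0.0217, limma adjusted p = 6.59e-10), its arrays lying at 11.21 to 11.24 with the fusion, against 10.77 to 10.86 without it. *Dusp1* averaged 11.45 and 11.46 and did not pass (limma adjusted p = 0.56). Without overlap were 3 members above and 5 below, beside 28% and 18.5% of all genes. In 1 fit of all 53 arrays, which lends the eMCs the wider spread of the tumors, none of the 8 passed. Markers of other cells also differed: the granulocyte sum (8 of 8) was 4250 to 4350 with the fusion, against 475 to 525 without it, the mast cell sum (5 of 5) 1460 to 1510, against 71.9 to 81.4, and the muscle sum 1680 to 1790, against 428 to 458. Their part in the result was not tested.

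**Figure D2:**
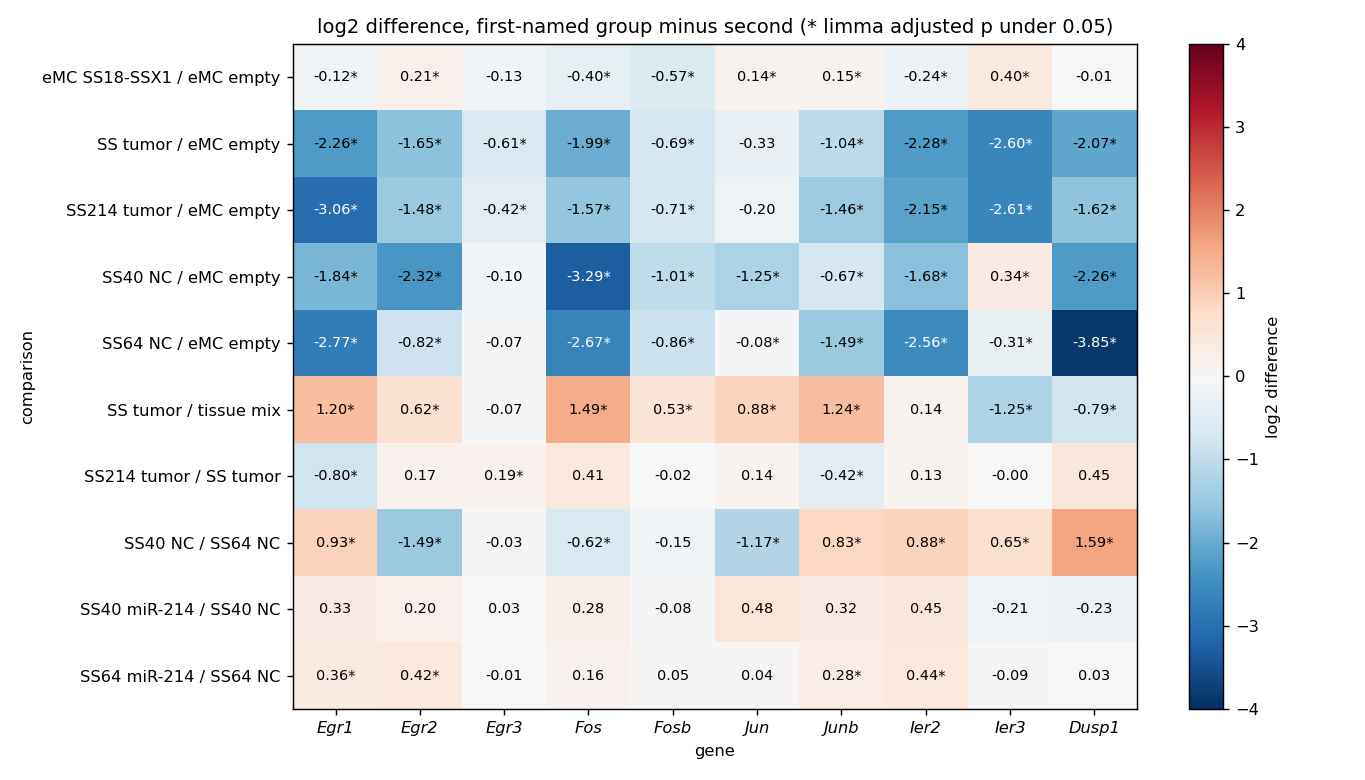
Log2 difference of each gene (columns) in 10 comparisons (rows, the first-named group minus the second). Red is higher and blue lower in the first-named group, and asterisks mark a limma adjusted p under 0.05. In the 4 rows that set a tumor or line against empty vector eMCs nearly all cells are blue, with *Dusp1* in SS64 at -3.85 the lowest.

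Set against the same empty vector eMCs, the tumors and the lines had lower levels of most members. In SS, 9 of 10 members fell and none rose, 7 by over 2-fold, where 35.7% of 15623 genes fell (68.3% passed either way) and 8.70% fell by over 2-fold. All tumors lay below all eMCs for 8 members, beside 23.4% of genes. The median was -1.82 over the members and -0.03 over all genes. In SS214, 9 fell, 7 by over 2-fold and 8 without overlap, beside 27.2%, 7.03% and 15.5% of genes (56.3% passing either way). In SS40 NC, 8 fell (7 by over 2-fold) and *Ier3* rose, where 58.6% of genes passed, 32.8% higher, 25.8% lower and 8.54% lower by over 2-fold, and all 8 were without overlap (24.9% of genes). In SS64 NC 9 fell, 5 by over 2-fold and all 9 without overlap, where 60.9% of genes passed, 26.1% lower, 8.64% lower by over 2-fold and 25% lower without overlap. These 4 comparisons share their 4 control arrays, so they are not independent of each other. Tumor or line against primary culture is confounded with growth in an animal or with medium and serum, and these cannot be told apart from the change to sarcoma.

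*Egr1* had a lowest, median and highest value of 7.61, 9.18 and 9.62 in SS214 and of 9.12, 9.47 and 10.48 in SS. It was 10.07, 10.15, 9.82 and 9.92 in SS40 NC and 9.15, 9.04, 9.11 and 8.94 in SS64 NC, against 11.81 to 11.86 in empty vector eMCs. Every tumor and every line array thus lay below every eMC array. The differences from empty vector eMCs were -3.06 in SS214 (SE 0.335, 95% confidence interval -3.77 to -2.36), -2.26 in SS (SE 0.175, -2.63 to -1.89), -1.84 in SS40 NC (SE 0.0618) and -2.77 in SS64 NC (SE 0.0414), with limma adjusted p of 4.93e-07, 4.13e-09, 6.66e-10 and 3e-15. As levels, these are 8.35-fold, 4.79-fold, 3.59-fold and 6.83-fold lower. *Egr2* fell in all 4, with differences of -1.48 in SS214, -1.65 in SS, -2.32 in SS40 NC and -0.82 in SS64 NC. *Egr3* fell in SS214 (-0.42) and SS (-0.61), and did not pass in SS40 NC (-0.10) or SS64 NC (-0.07).

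*Fos* was 8.18, 9.48 and 10.91 in SS214 (lowest, median, highest) and 8.42, 9.08 and 9.83 in SS. It was 7.62, 7.63, 7.81 and 7.81 in SS40 NC and 8.19, 8.21, 8.48 and 8.48 in SS64 NC, against 11 to 11.04 in empty vector eMCs. SS214 tumor 6, at 10.91, came nearest to the eMCs, and no group overlapped them. The log2 differences were -1.57 (SE 0.406) in SS214, -1.99 (SE 0.192) in SS, -3.29 (SE 0.0561) in SS40 NC, a level 9.81-fold lower, and -2.67 (SE 0.0639) in SS64 NC (limma adjusted p = 0.00351, 7.32e-08, 2.98e-12 and 3.37e-13). *Junb* fell in all 4, with differences of -1.46 in SS214, -1.04 in SS, -0.67 in SS40 NC and -1.49 in SS64 NC. *Fosb* fell too, with -0.71 in SS214, -0.69 in SS, -1.01 in SS40 NC, where 1 array lay at the floor, and -0.86 in SS64 NC.

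*Jun*, the main partner of FOS, did not follow. Its lowest, median and highest values were 8.56, 9.97 and 11.59 in SS214 and 8.48, 10.21 and 10.69 in SS, around the 10.27 to 10.28 of empty vector eMCs. The differences were -0.20 in SS214 (95% confidence interval -0.87 to 0.47, limma adjusted p = 0.621) and -0.33 in SS (-1.01 to 0.34, limma adjusted p = 0.37). SS64 NC fell by 0.08 (limma adjusted p = 0.0262), a call lost in 5 of the 8 fits without 1 array, and the second probe set did not show it (0.004, limma adjusted p = 0.936), whereas SS40 NC differed by -1.25 (SE 0.0596, limma adjusted p = 1.08e-08), and by -1.35 in the second probe set.

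*Ier2* fell in all 4 without overlap, with differences of -2.15 in SS214, -2.28 in SS, -1.68 in SS40 NC and -2.56 in SS64 NC. *Ier3* fell in SS214 (-2.61) and SS (-2.60), to levels 6.09-fold and 6.08-fold lower. In SS64 NC it differed by -0.31, and in SS40 NC it rose, by 0.34. *Dusp1* was 8.80, 9.95 and 10.68 in SS214, 8.62, 9.32 and 10.21 in SS, 9.22, 9.05, 9.29 and 9.27 in SS40 NC and 7.53, 7.55, 7.66 and 7.71 in SS64 NC, against 11.44 to 11.47 in empty vector eMCs. The differences were -1.62 (SE 0.267) in SS214, -2.07 (SE 0.258) in SS, -2.26 (SE 0.0522) in SS40 NC and -3.85 (SE 0.0436) in SS64 NC, with limma adjusted p of 5.98e-05, 1.81e-06, 3.29e-11 and 2.37e-16. The SS64 level was 14.4-fold lower. With the *Gapdh* ratio as a covariate 9 members passed in SS and 9 in SS214, and *Jun* in SS turned to 0.27 (limma adjusted p = 0.675). The ratio was 0.326 to 1.43 in SS and -0.0152 to 0.0639 in empty vector eMCs. As these do not overlap, the fit for SS cannot separate the group from RNA quality. Without the 4 SS214 tumors high in lung genes, *Fosb* in SS214 no longer passed (-0.63, limma adjusted p = 0.0754), nor did it without empty vector replicate 2 or 4 (limma adjusted p = 0.0719 and 0.0513).

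SS tumors were also compared with the tissue mix. *Fos* (1.49, SE 0.194), *Junb* (1.24, SE 0.167), *Egr1* (1.20, SE 0.178), *Jun* (0.88, SE 0.324), *Egr2* (0.62, SE 0.186) and *Fosb* (0.53, SE 0.162) were higher in the tumors, with limma adjusted p between 3.47e-06 and 0.028. *Ier3* (-1.25, SE 0.118, limma adjusted p = 5.89e-08) and *Dusp1* (-0.79, SE 0.259, limma adjusted p = 0.0157) fell. *Ier2* (0.14, limma adjusted p = 0.264) and *Egr3* (-0.07, limma adjusted p = 0.57) did not pass. The 8 of 10 members compare with 63.3% of 15677 genes (36.1% higher, 27.2% lower), and 3 higher and 1 lower by over 2-fold with 11.3% and 13.8%, and the medians were 0.57 over the members and 0.07 over all genes. *Egr1* was 9.12, 9.47 and 10.48 (lowest, median, highest) in SS and 8.35, 8.39, 8.41 and 8.32 in the mix, without overlap. This held for 4 members above, with *Fos*, *Junb* and *Fosb*, and for *Ier3* below, beside 28% and 20.5% of genes. *Fosb* in the mix lay at the floor on 3 of 4 arrays, so its difference is measured against the floor. Mean *Egr2*, at 4.98 in SS and 4.36 in the mix, was within 1.5 log2 units of the floor, which can shrink a difference. *Egr1*, *Egr2*, *Fos*, *Fosb* and *Junb* in SS were thus above the mix and below eMCs. The mix holds several organs and is no counterpart of the tumor's cells. The *Jun* call was lost without mix replicate 1, 3 or 4 (limma adjusted p = 0.0719, 0.0623 and 0.0557). With the *Gapdh* ratio as a covariate 5 of the 8 passed, and *Egr2*, *Fosb* and *Dusp1* did not. The ratios of SS (0.326 to 1.43) and the mix (0.0377 to 0.0722) do not overlap, so this fit cannot separate the group from RNA quality.

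SS214 against SS set tumors with *miR-214* in the retrovirus against tumors without it there, whose vector holds GFP in its place. The paper reports retroviral integrations at *Dnm3*, with raised *miR-214* (moderately in SS23), in its tumors SS18, SS19 and SS23. By number these are SS tumors 18, 19 and 23 here, so SS may not be free of raised *miR-214*. In SS214 *Egr1* and *Junb* fell and *Egr3* rose, all by less than 2-fold, and the other 7 did not pass. This is 3 of 10, beside 39.9% of 15643 genes that passed (22.6% higher, 17.3% lower, 2.01% at over 2-fold), and none of the 10 was without overlap, beside 1.27% of genes. *Egr1* had a lowest, median and highest value of 7.61, 9.18 and 9.62 in SS214, against 9.12, 9.47 and 10.48 in SS. SS214 tumors 3, 4, 5 and 8, at 7.61, 8.06, 7.88 and 7.74, lay below every SS tumor, as did tumors 2 and 16 (8.74 and 8.64), while the other 7 overlapped SS. It fell by 0.80 (SE 0.218, 95% confidence interval -1.25 to -0.35, limma adjusted p = 0.005). *Junb* was 5.47, 6.15 and 6.65 in SS214, against 6.20, 6.54 and 7.23 in SS, and fell by 0.42 (SE 0.131, limma adjusted p = 0.0132). *Egr3* was 4.87, 5.25 and 5.57 in SS214, against 4.78, 5.05 and 5.24 in SS, and rose by 0.19 (SE 0.0734, limma adjusted p = 0.0461).

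*Dusp1* (0.45, 95% confidence interval 0.01 to 0.88, limma adjusted p = 0.0961), *Fos* (0.41, -0.12 to 0.95, limma adjusted p = 0.21) and *Egr2* (0.17, limma adjusted p = 0.508) did not pass. *Dusp1* passed without SS214 tumor 3 (0.53, limma adjusted p = 0.0396) and in 1 fit of all arrays (limma adjusted p = 0.0165). *Jun* (0.14), *Ier2* (0.13), *Fosb* (-0.02) and *Ier3* (-0.001) also did not. The *Gapdh* ratio nearly separates the groups, the lowest SS tumor being at 0.326 and 1 SS214 tumor, tumor 9, above that at 0.483. With this ratio as a covariate no member passed, *Egr1* being at -0.50 (limma adjusted p = 0.472), *Junb* at -0.09 and *Egr3* at 0.12, and the share of all genes passing was 6.21%. The granulocyte sum (8 of 8) was 359 to 18000 in SS214 (median 5550), against 169 to 4940 in SS (median 435), and the macrophage sum (9 of 9) 1640 to 7140 (median 4990), against 683 to 6810 (median 2210). Their part in the result was not tested. *Egr1* and *Junb* passed with any 1 tumor left out (*Egr1* at -0.87 to -0.71), and the *Egr3* call was lost in 17 of these 25 fits.

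**Figure D3:**
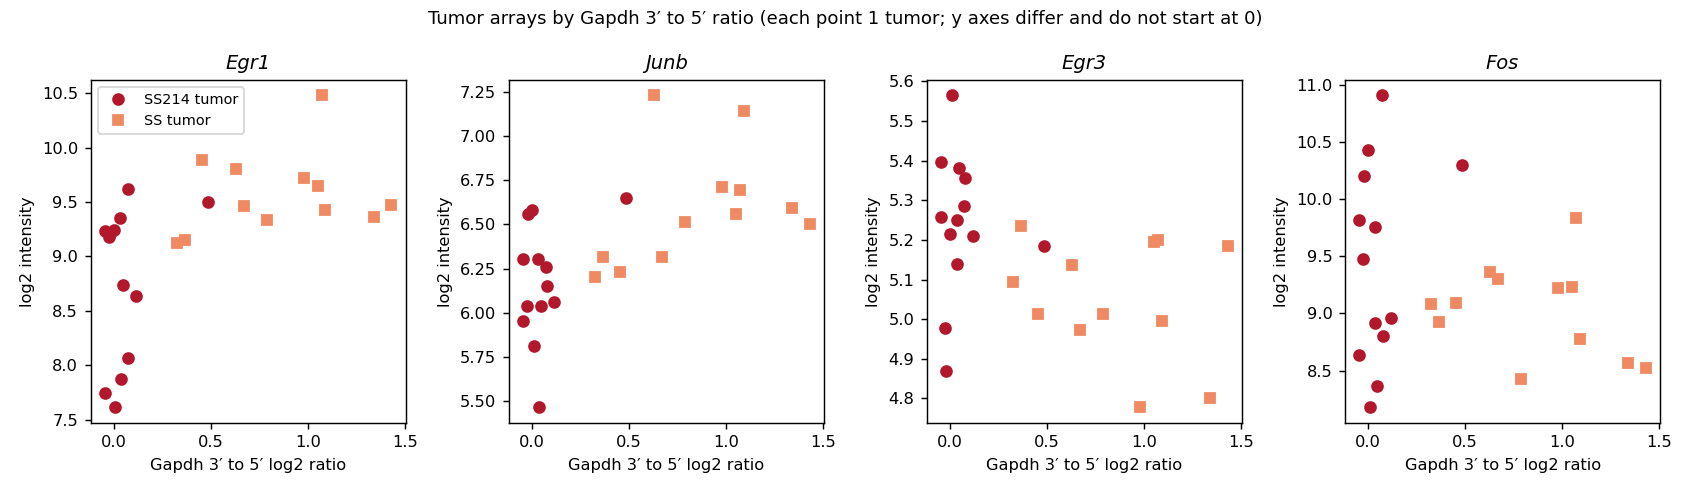
Log2 intensity of *Egr1*, *Junb*, *Egr3* and *Fos* (y axes, which differ and do not start at 0) against the log2 3′ to 5′ ratio of *Gapdh* (x axis) in 13 SS214 tumors (circles) and 12 SS tumors (squares). The SS214 tumors lie at ratios up to 0.483 and the SS tumors at 0.326 and above, so the ratio and the group nearly coincide.

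The tumors of 1 group differed from each other more in some members than in others. In SS214 the SD of *Fos* was 0.867 and that of *Egr1* 0.713, at the 95.5th and 92.3rd percentile of 11726 genes, and *Egr3* stood at the 18.4th (0.180). In SS, *Jun* (0.694) and *Dusp1* (0.555) stood at the 94.0th and 90.6th percentile, and *Egr3* (0.152) at the 15.7th. Single tumors were high or low for many members at once. SS214 tumor 6 was the highest of its group for *Egr1*, *Fos*, *Jun*, *Ier2* and *Dusp1*, *Jun* reaching 11.59, and tumor 9 was among the top 3 for 6 members. SS214 tumor 3 was the lowest for *Egr1*, *Fos*, *Jun*, *Ier3* and *Dusp1*, and yet the highest for *Egr3*. Among SS, tumor 19 was the highest for *Egr1*, *Fos*, *Fosb* and *Ier2* and in the top 3 for 9 of 10 members, and tumor 5 was the highest for *Egr2*, *Jun*, *Junb* and *Dusp1*. SS tumor 33 was the lowest for *Egr2*, *Fos* and *Ier3*, and tumor 18 had the lowest *Jun* (8.48) with *Junb* at the group's mean. This is a description of the ranks, and the genes of 1 tumor's array share its RNA quality and tissue content.

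**Figure D4:**
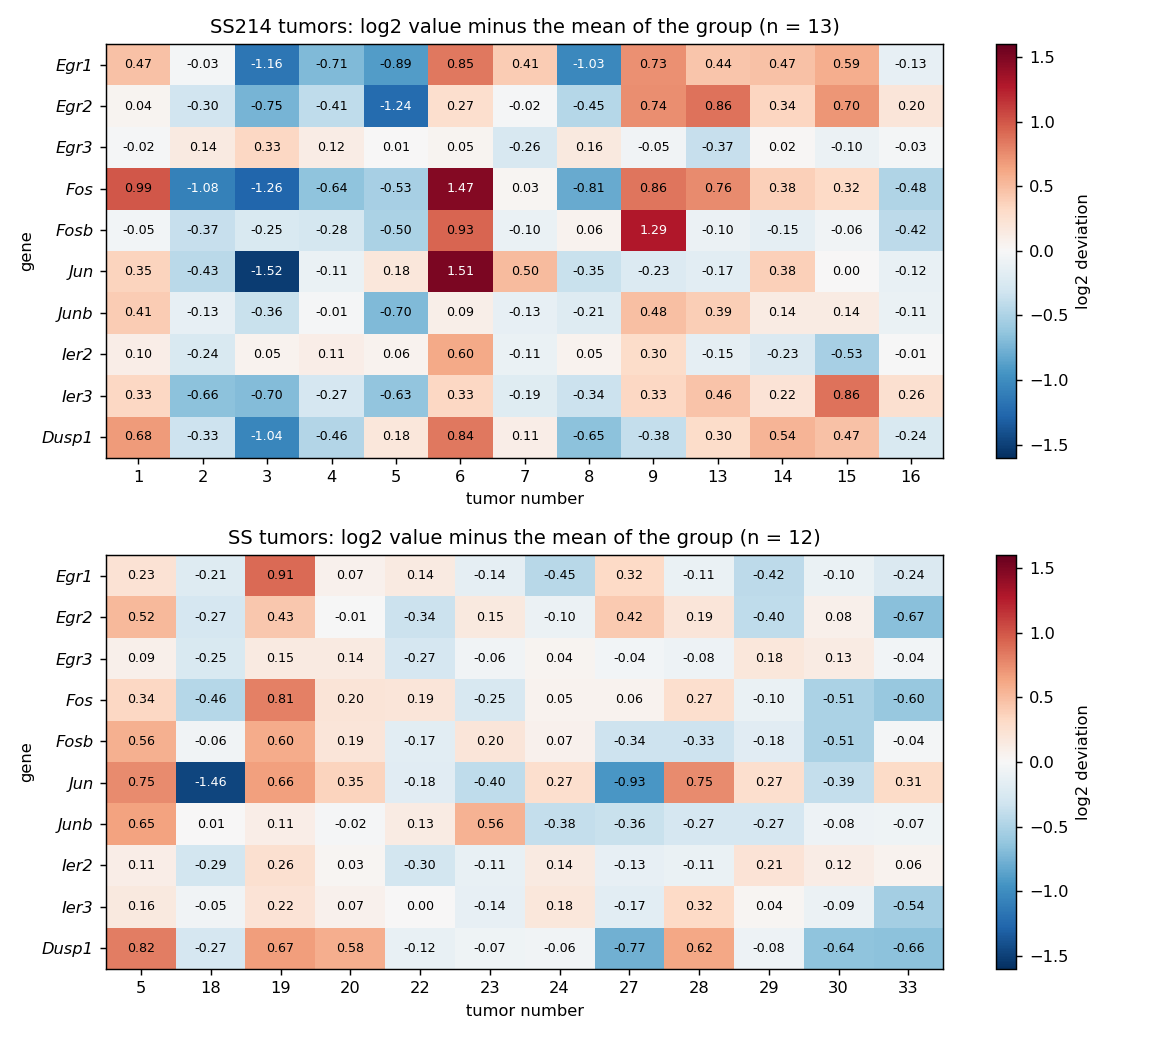
Log2 value of each gene (rows) in each tumor (columns) minus the mean of its group, for 13 SS214 tumors (upper) and 12 SS tumors (lower). Red is above and blue below the mean, and SS214 tumors 6 and 3 and SS tumors 19 and 33 stand out over several genes.

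The 2 lines also differed from each other before any *miR-214*. Of the 10 members, 5 were higher and 3 lower in SS40 NC than in SS64 NC, beside 48.5% of 15473 genes passing (26.4% higher, 22.1% lower), and all 8 were without overlap (26.2% of genes above, 22.1% below). *Dusp1* was 9.22, 9.05, 9.29 and 9.27 in SS40 NC, against 7.53, 7.55, 7.66 and 7.71 in SS64 NC, a difference of 1.59 (SE 0.0725, limma adjusted p = 1.53e-08) or 3.02-fold. *Egr1* (0.93), *Ier2* (0.88), *Junb* (0.83) and *Ier3* (0.65) were higher too. *Egr2* was 4.33, 4.05, 4.47 and 4.41 in SS40 NC, against 5.70, 5.54, 5.99 and 6.02 in SS64 NC, a difference of -1.49 (SE 0.135, limma adjusted p = 4.3e-06), and of -2.14 in its second probe set. *Jun* (-1.17, SE 0.0628, limma adjusted p = 5.96e-08) and *Fos* (-0.62, SE 0.0905, limma adjusted p = 0.000191) were lower as well. The EGR genes, and likewise the AP-1 genes, thus differed in both directions between the lines, each of which is 1 line.

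In the lines *miR-214* was set against NC. In SS64 *Ier2*, *Egr2*, *Egr1* and *Junb* rose, by 1.35-fold at most, and none fell, 4 of 10 beside 12.9% of 15403 genes (4.90% higher), all 4 being without overlap (7.71% of genes). *Ier2* was 8.61, 8.64, 8.62 and 8.66 with *miR-214*, against 8.27, 8.10, 8.21 and 8.21 with NC, a difference of 0.44 (SE 0.0513, limma adjusted p = 0.000242) or 1.35-fold. *Egr1* was 9.46, 9.49, 9.34 and 9.38 with *miR-214*, against 9.15, 9.04, 9.11 and 8.94 with NC, a difference of 0.36 (SE 0.0558, limma adjusted p = 0.0016). *Egr2* differed by 0.42 (limma adjusted p = 0.0332; second probe set 0.54, limma adjusted p = 0.0062) and *Junb* by 0.28 (limma adjusted p = 0.0259). With 1 array left out, *Egr2* lost its call in 6 of 8 fits (all but those without NC replicate 3 or 4) and *Junb* in 5 of 8 (without *miR-214* replicate 1 or 2 or NC replicate 2, 3 or 4), so that none of the 8 fits kept all 4 members, and in 1 fit of all arrays none passed. With the replicate number as a block *Fos* passed too (0.16, limma adjusted p = 0.0488).

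In SS40 none passed (limma), where 1.03% of 15440 genes did. At an unadjusted p under 0.05, 6 members did, *Jun*, *Ier2*, *Egr1* and *Fos* upwards and *Ier3* and *Dusp1* downwards, beside 11.4% of genes, and the methods' t-test gave 6 unadjusted and 0 adjusted. Without overlap were 3 members above and 2 below, beside 3.82% and 6.94% of genes. *Jun* was 9.46, 9.47, 9.36 and 9.74 with *miR-214*, against 9.15, 8.85, 9.07 and 9.03 with NC, without overlap, a difference of 0.48 (95% confidence interval 0.25 to 0.72, limma adjusted p = 0.0903). *Ier2* was 9.40, 9.39, 9.46 and 9.89 with *miR-214*, against 9.05, 9.15, 9.02 and 9.10 with NC, a difference of 0.45 (limma adjusted p = 0.173). *Egr1* was 10.32, 10.38, 10.10 and 10.46 with *miR-214*, against 10.07, 10.15, 9.82 and 9.92 with NC, overlapping, a difference of 0.33 (0.10 to 0.55, limma adjusted p = 0.295). Without *miR-214* replicate 4, which had the highest *Ier2*, 2 members passed, *Ier2* and *Jun*. The change in SS40 minus that in SS64 was tested directly and no member passed, where 0.872% of 15826 genes did. That of *Egr1* was -0.03 (95% confidence interval -0.29 to 0.22), an interval that holds 0. That of *Jun* was 0.44 (0.21 to 0.68, limma adjusted p = 0.11). At an unadjusted p under 0.05 *Jun* and *Dusp1* (-0.26) differed.

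**Figure D5:**
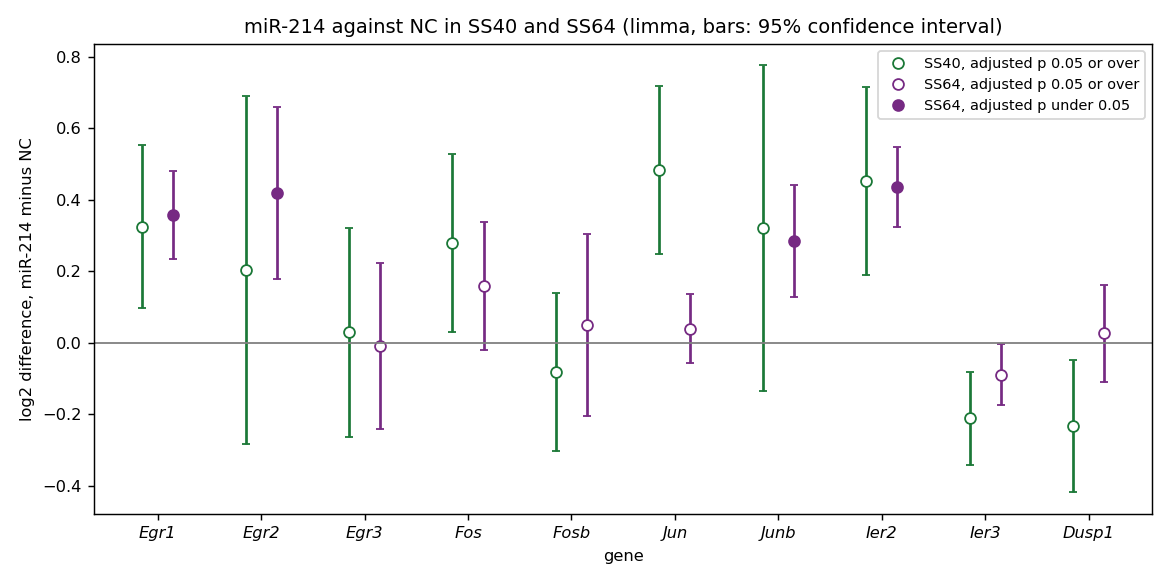
Log2 difference of *miR-214* minus NC for each gene in SS40 (green, left) and SS64 (purple, right), with 95% confidence intervals from limma (n = 4 arrays a group). Filled points have an adjusted p under 0.05, and these are *Egr1*, *Egr2*, *Junb* and *Ier2* in SS64.

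*Egr1* was thus lower in SS214 than in SS tumors but higher with *miR-214* in SS64, by -0.80 and 0.36. The *Gapdh* ratio nearly separates the tumor groups, and with it as a covariate *Egr1* was at -0.50 (limma adjusted p = 0.472). The tumors also hold host cells. The tumors carry *miR-214* in a retrovirus from the start and the lines received it by transfection, so the values stand side by side and their difference was not tested.

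Genes of the same pathway were taken from lists written for this purpose, with earlier results of these data known. For these lists, *Tle1* and *Atf2* included, no fit with the *Gapdh* ratio as a covariate was made. Their values in SS214 against SS thus carry the limit of RNA quality. In that comparison 39.9% of all genes passed without the covariate and 6.21% with it. Of 8 other AP-1 genes, 5 were lower and 1 higher in SS than in empty vector eMCs (35.7% and 32.6% of all genes), with a median of -0.58, against -0.03 over all genes. *Fosl1*, another FOS family gene (-3.48, limma adjusted p = 5.62e-16), and *Jdp2*, whose product dampens AP-1 (-1.25, limma adjusted p = 1.55e-05), fell. In SS40 NC 3 were higher and 4 lower (32.8% and 25.8% of genes), and in SS64 NC 4 were higher and 2 lower (34.9% and 26.1%). *Atf3*, a stress-induced ATF gene, rose with the fusion in eMCs (1.77, SE 0.0483, limma adjusted p = 2.17e-13) and in SS against the mix (3.05). Against empty vector eMCs it differed by -1.70 in SS40 NC and by 0.63 in SS64 NC. In SS214 against SS, 3 were higher, including *Atf3* (0.85, limma adjusted p = 0.0347), and 1 lower, *Jund* (-0.50), beside 22.6% and 17.3% of genes.

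Of SRF and its cofactors (7 of 8 on the array), 5 were higher and 1 lower in SS than in empty vector eMCs, beside 32.6% and 35.7% of all genes (median 0.75, against -0.03 over all genes). The coactivators *Mrtfa* (1.46), *Mrtfb* (1.43) and *Myocd* (1.01) rose, while *Fhl2*, whose LIM protein binds SRF, fell by 3.84. In SS214 against SS, 5 of 7 were lower and 1 higher, beside 17.3% and 22.6% of genes (median -0.53, against 0.04 over all genes). Those lower included *Myocd* (-0.87), *Mrtfb* (-0.84) and *Elk4* (-0.71). Of *Nab1*, *Nab2* and *Egr4*, *Nab2*, a corepressor of EGR proteins, was lower in SS214 than in SS (-0.43, limma adjusted p = 0.0042) and higher in SS than in the mix (2.33). In the fusion-expressing eMCs none of the 3 passed (limma).

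Of 32 other primary response genes on the array, 17 were higher and 8 lower with the fusion in eMCs, beside 29.4% and 19.5% of all genes (median 0.14). *Gadd45b* (0.98), *Nfkbia* (0.94), *Maff* (0.80) and *Nr4a3* (0.73) rose most. Against empty vector eMCs, 14 of the 32 were lower and 6 higher in SS (35.7% and 32.6% of all genes), where a larger share of all genes passed (68.3%). In SS214 16 were lower and 8 higher (27.2% and 29.1% of genes), in SS40 NC 15 and 10 (25.8% and 32.8%), and in SS64 NC 16 and 6 (26.1% and 34.9%). *Ptgs2*, the gene of cyclooxygenase-2, (-5.39), and *Errfi1*, which encodes an inhibitor of the EGF receptor (-3.67), fell in SS. In both lines *Rgs2*, which limits G protein signals, fell (-4.57 in SS40 NC, -4.34 in SS64 NC). With *miR-214*, *Klf4* and *Klf2*, zinc finger transcription factors, rose in SS40 by 1.07 and 1.02 and in SS64 by 0.80 and 0.62, with limma adjusted p of 0.0124, 0.0075, 0.000123 and 0.000396.

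Of 8 other MAP kinase phosphatase genes, 5 were higher and 1 lower with the fusion in eMCs, beside 29.4% and 19.5% of all genes (median 0.36), and *Dusp1* did not pass there. *Dusp4* rose by 1.499 (SE 0.0938, limma adjusted p = 3.55e-09) and *Dusp2* by 1.11. *Dusp4* also rose in SS (1.51), SS214 (1.21), SS40 NC (0.81) and SS64 NC (2.38) against empty vector eMCs, in each of which *Dusp1* fell. *Dusp6*, a phosphatase for ERK, differed by 0.87 in SS and by -2.17 in SS40 NC. Of 11 MAP kinase pathway genes on the array of 17 listed, 7 were higher and none lower in SS (limma) than in empty vector eMCs, beside 32.6% and 35.7% of all genes (median 0.34), such as *Braf* (0.77) and *Mapk14* (0.60). *Nras*, which encodes a RAS protein upstream of ERK, fell with *miR-214* in SS40 (-1.42, SE 0.104, limma adjusted p = 0.000641) and in SS64 (-1.40, SE 0.0819, limma adjusted p = 1.48e-06).

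*Tle1* and *Atf2*, named with the fusion at *EGR1* in human cells, were measured on the same arrays. *Tle1* rose in SS against empty vector eMCs by 1.97 (SE 0.0799, limma adjusted p = 5.41e-13) and *Atf2* by 1.35 (SE 0.0941, limma adjusted p = 9.75e-10). In fusion-expressing eMCs *Tle1* fell (-0.39) and *Atf2* rose (0.31), and in SS214 against SS both fell (-0.39 and -0.31). *Atf2* rose in SS40 NC (0.89) and SS64 NC (0.59) against empty vector eMCs, where *Tle1* did not pass. These are levels of the genes and say nothing of binding at *Egr1*.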

How the data were processed

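RNA of cultures, tumors and a tissue mix was hybridized to 53 Affymetrix arrays. The authors deposited summarized, scaled intensities per probe set (5.36 to 11034, array medians 22.6 to 26.9). The submitters' notes name MAS5 with no version, and the values alone do not settle how they were summarized. Symbols came from the platform annotation, 28689 updated by gene ID. Of the probe sets 28898 had 1 symbol, 551 several, 15588 none and 104 were controls.

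Values under 11.7 were set to 11.7 before taking log2. Probe sets exceeding it in 4 or more arrays of a comparison entered limma 3.58.1 (R 4.3.3; lmFit, eBayes with trend, arrays of the groups compared only), with Benjamini-Hochberg adjustment. The brightest probe set over all arrays stood for a gene. The number of arrays limits the precision. In data simulated for fusion-expressing against empty vector eMCs (42565 probe sets), 65 of 67 probe sets changed 1.5-fold and 66 of 66 changed 3-fold passed, and for SS214 against SS (45036 probe sets) 44 of 67 and 65 of 66. Arrays of SS64 with the same replicate number deviated together (correlations 0.221 to 0.346), but numbers 1 and 3 were most like numbers 2 and 4. No source states a pairing, so the replicate block was used as a varied setting only.

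Settings varied one at a time were the normalization (quantile), the floor (none, or 17.8), the filter, the mean over probe sets, a fit of all arrays at once, the methods' t-test, the replicate block, left-out replicates, the *Gapdh* ratio as a covariate, and leaving out SS214 tumors 13 to 16, which were the tumors high in lung genes. Leaving out each tumor in turn was chosen after seeing the data. The members, lists, markers and tests were chosen with earlier results of these data known. Genes named were the 10 members, passing genes among the 4 with the largest difference per list and comparison (other values of these genes are given for completeness), and the 5 genes most like *Egr1* and *Fos*. The labels name a line SS64 that the paper calls SS60, and a mouse mix that its methods call human, and were followed. Promoters came from RefSeq (GRCm38.p6). Plots were made in matplotlib 3.10.9 under Python 3.11.15.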

Additional observations from a re-analysis of the deposited data

Results flagged for a closer look

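In each of 70 groups of 4 arrays, 1 member at a time, the array farthest from the others was tested. The test was its gap relative to the group's range, against a limit that chance exceeds in about 1 of 20 groups. In all, 3 arrays stood apart, which is no more than that share. *Egr3* was 5.89 in SS40 NC replicate 2, against 5.43 to 5.49 in the other 3. *Fosb* was 3.554 in the tissue mix replicate 1, where the other 3 lay at the floor (3.549), a gap with no weight. *Ier2* was 9.89 in SS40 *miR-214* replicate 4, against 9.39 to 9.46 in the others. The *Ier2* array bears on the count in SS40, which is 0 with it and 2 without it.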

How the results depend on the processing

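The 8 members passing in fusion-expressing against empty vector eMCs became 0 in 1 fit of all arrays, the 8 of SS against the mix became 5 with the *Gapdh* ratio as a covariate, and the 3 of SS214 against SS became 0 with it. The 4 members with *miR-214* in SS64 became 0 in 1 fit of all arrays, and the 0 in SS40 became 1 with the mean over probe sets (*Egr2*, 0.49, limma adjusted p = 0.015) and 6 with the unadjusted t-test. The causes were not tested. With 1 array left out, 0 to 2 members passed in SS40 and 2 to 3 in SS64, 7 to 8 in fusion-expressing eMCs, 2 to 3 in SS214 against SS, and 8 or 9 for the lines against empty vector eMCs. Where tumors were set against the mix or the eMCs, only arrays of the mix or the eMCs were left out in turn, and 7 to 8 members passed in SS against the mix and 8 or 9 in the tumors against empty vector eMCs. With the replicate number as a block, 8 members passed in eMCs, 0 in SS40 and 5 in SS64, where *Fos* was added. Same-number correlations were 0.0113 to 0.153 in eMCs, -0.282 to 0.464 in SS40 and 0.221 to 0.346 in SS64. In SS64, numbers 1 and 3 were most like numbers 2 and 4 of the other group. A pairing of arrays by single number is thus not shown in any of them. In SS64, however, numbers 1 and 2 were both most like number 2 of the other group, and numbers 3 and 4 most like number 4. The main fit does not model this likeness. With the block 18.2% of all genes passed in SS64, against 12.9% in the main fit.

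No member that passed turned its sign, and the largest turned value was -0.38. With the *Gapdh* covariate *Jun* turned to 0.27 in SS against empty vector eMCs and to -0.38 in SS214 against SS, *Fosb* to 0.25 and *Ier3* to 0.0026 in SS214 against SS, and *Egr3* to 0.0026 in SS against the mix. With quantile normalization *Egr3* turned to 0.016 in SS against the mix, to 0.0089 in SS64 NC against empty vector eMCs and to 0.022 with *miR-214* in SS64, *Ier3* to 0.011 in SS214 against SS and *Ier2* to -0.020 in the difference between the lines. There the mean over probe sets put *Egr2* at 0.0053. In SS214 against SS the higher floor put *Fosb* at 0.052, and without SS214 tumors 13 to 16 *Egr2* was -0.061 and *Fosb* 0.061. With 1 array left out, signs varied for *Fosb* (-0.13 to 0.035) and *Ier3* (-0.073 to 0.057) in SS214 against SS, for *Egr3* between the NC lines (-0.14 to 0.036), with *miR-214* in SS40 (-0.031 to 0.14) and in SS64 (-0.071 to 0.059), and for *Fosb* (-0.065 to 0.12) and *Dusp1* (-0.00013 to 0.060) in SS64. In the difference between the lines they varied for *Egr1* (-0.087 to 0.040), *Egr2* (-0.37 to 0.018), *Egr3* (-0.030 to 0.15), *Ier2* (-0.10 to 0.068) and *Junb* (-0.11 to 0.16). The means of *Fosb* in all groups, and of *Egr2* in SS40, SS and the mix, lay within 1.5 log2 units of the floor, where differences can be compressed. Bulk arrays do not show which cells carry a transcript.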
